A study of Mus musculus with 24 samples.

Results

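The genes described here are those of the motile cilium in mouse lung: axonemal dynein heavy chains (Dnah), dynein assembly factors (Dnaaf), cilia and flagella associated proteins (Cfap), radial spoke head proteins (Rsph), tektins (Tekt) and Foxj1. They were chosen by symbol, each family name followed by a digit, with 1 probe set per gene, the one with the highest mean over all 24 arrays of the study. A gene had to exceed a log2 level of 4 in at least 3 of the 12 lung arrays. Of 52 such symbols on the array, 37 passed and 15 did not, among 18193 genes on the array and 11600 genes tested in lung. The 37 were 16 of 25 Cfap genes, 8 of 10 Dnah genes, 4 of 5 Dnaaf genes, 5 of 6 Rsph genes, 3 of 5 Tekt genes and Foxj1. Dynein intermediate chain genes (Dnai) were also sought, but the annotation holds them under the older names Dnaic1 and Dnaic2, so 0 symbols matched. Any other gene of these families held under another name would be missed in the same way.

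The study measured lung and left ventricle RNA of CD-1 mice, labelled as male and aged 20 weeks, on Affymetrix arrays. The 4 lung groups of 3 arrays were wild type given PBS (phosphate-buffered saline), wild type given PM (particulate matter, 20 mg/kg, 1.9 µm particles), dnCREB given PBS and dnCREB given PM. Lungs of PM animals were taken after 36 h. The route of delivery, and the harvest time after PBS, are not given in the sources used here. dnCREB mice carry a dominant negative CREB1 transgene under the alpha myosin heavy chain promoter, which the labels call specific to cardiomyocytes. The series text speaks of groups of 3 animals. The labels do not tie each array to an animal, so p-values measure the spread between arrays.

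Motile cilia on the airway surface beat in waves that carry mucus and trapped particles out of the lung. Each is built on an axoneme of doublet microtubules; dynein arms on the doublets supply the force, and radial spokes and the central pair regulate it. Dynein assembly factors build the arms in the cytoplasm before transport into the cilium. Foxj1 is the transcription factor that switches on the motile cilia programme, and in airway epithelium it marks the multiciliated cells. In a bulk sample, fewer ciliated cells and less ciliary RNA per cell cannot be told apart.

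Foxj1 was present in every lung array. Its log2 level ran from 6.65 to 7.97 in lung, against 3.79 at most in the heart arrays, which were normalized separately. Of the 37 genes, 34 exceeded 4 in all 12 lung arrays. The members just inside the limit were Dnah1, above 4 in 5 lung arrays, Dnah12 in 9 and Cfap61 in 11. Just outside it were Cfap299 and Dnah7a, above 4 in 2 lung arrays each, and Cfap53, in 1. In heart, 8 of the 37 exceeded 4 in all 12 arrays (Cfap20, Cfap36, Cfap97, Cfap126, Cfap298, Dnaaf5, Rsph1 and Rsph3a), Cfap300 in 1 array and the other 28 in 0. The 37 therefore divide into 29 genes largely restricted to lung between these tissues and 8 found in both. The filter used lung arrays only, so a gene present in heart alone could not enter. Heart arrays did count in the choice of probe set. With the probe set of the highest lung mean instead, 38 members passed. For Cfap410, which has 2 probe sets, the one chosen was at 6.40 to 6.75 in heart and 3.98 at most in lung.

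Arrays of a group were not alike in tissue content. The mean of 11 skeletal muscle genes was 9.64 to 10.32 in 5 lung arrays and 3.68 to 5.36 in the other 7. The 5 were replicates 1 and 2 of the wild-type PM group, replicates 1 and 3 of the dnCREB PBS group and dnCREB PM replicate 3. The mean of 8 basal and squamous epithelium genes was high in the same arrays. Type II alveolar cell genes averaged 12.69 in wild-type PBS replicate 1 and 13.02 to 13.36 in the other arrays. Against a label of male throughout, Xist was high and the Y-linked Eif2s3y low in 6 lung arrays: 2 of 3 wild-type PM, 1 of 3 dnCREB PBS and 3 of 3 dnCREB PM. The reverse held in all 3 wild-type PBS arrays and wild-type PM replicate 2, and replicates 1 and 3 of the dnCREB PBS group were low in both. The PM comparisons in both genotypes and the genotype comparisons are thus unbalanced in these genes, the genotype comparison under PM least. Wild-type PBS replicate 1 had the lowest mean of endothelial and smooth muscle genes, 10.38 against 11.73 at most. The part of these differences in the cilia results was not tested beyond the values given beside them.

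**Figure D1:**
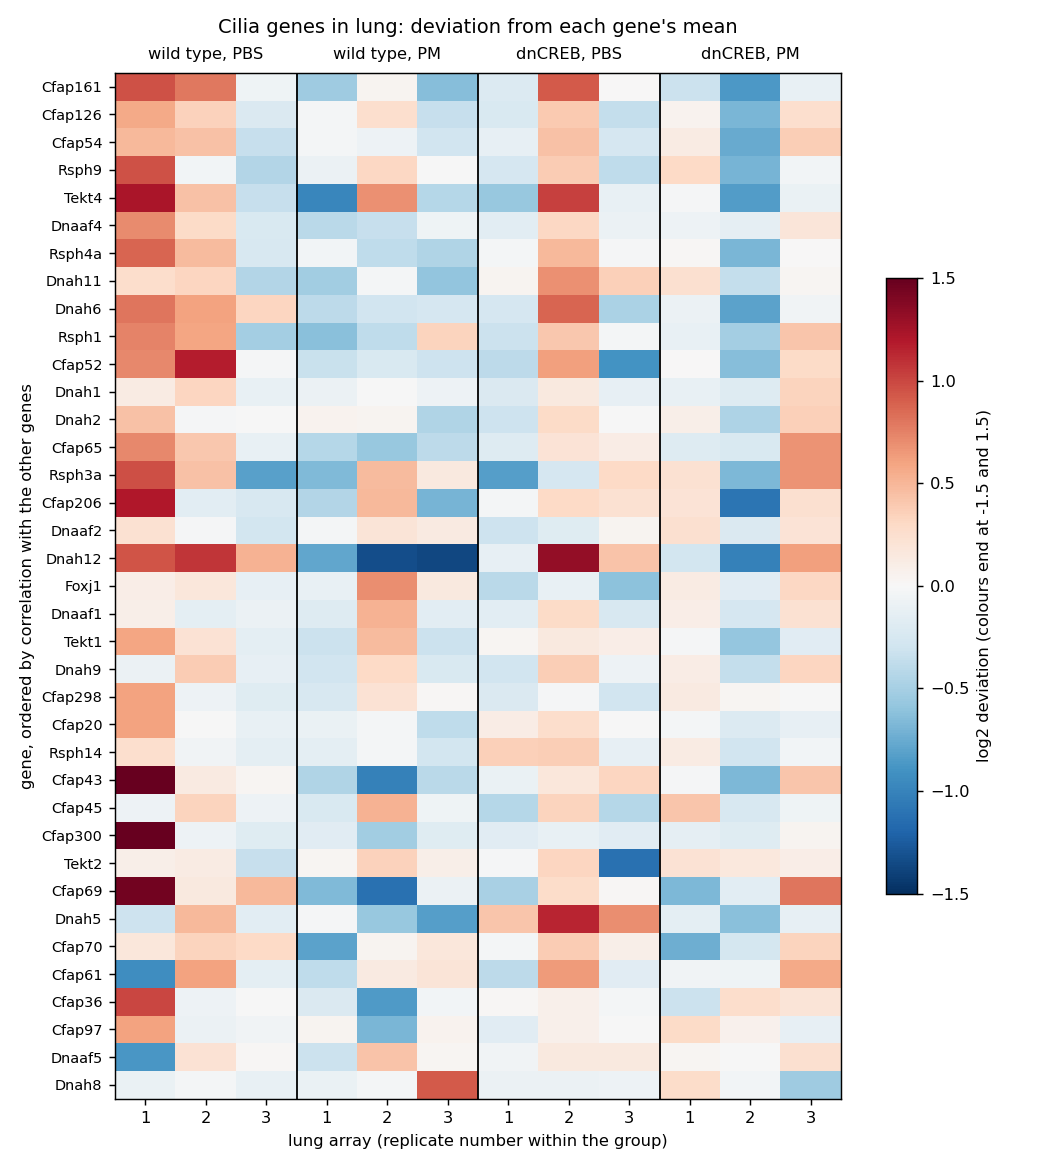
Log2 deviation of each of the 37 cilia genes from its own mean over the 12 lung arrays, with genes as rows ordered by their correlation with the other members and arrays as columns in 4 groups of 3. Wild-type PBS replicate 1 and dnCREB PBS replicate 2 are red for most genes, and dnCREB PM replicate 2 is blue for most.

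Ciliary genes differed between lungs of 1 group about as much as between groups. The mean log2 level of the 37 genes was 6.94, 6.68 and 6.28 in the 3 wild-type PBS arrays and 6.11, 6.35 and 6.22 in the wild-type PM arrays. It was 6.23, 6.76 and 6.32 in the dnCREB PBS arrays and 6.41, 6.02 and 6.59 in the dnCREB PM arrays. The highest mean belonged to wild-type PBS replicate 1 and the lowest to dnCREB PM replicate 2, and every pair of groups overlapped. Group means were 6.63 ± 0.33 for wild-type PBS, 6.22 ± 0.12 for wild-type PM, 6.44 ± 0.28 for dnCREB PBS and 6.34 ± 0.29 for dnCREB PM (SD, n = 3). Of the 37 genes, 30 lay above their own median in wild-type PBS replicate 1, 32 in dnCREB PBS replicate 2 and 31 in dnCREB PM replicate 3. No more than 5 did so in wild-type PM replicate 1 and in dnCREB PM replicate 2. Wild-type PBS replicate 1 held the highest value of 20 of the genes, and dnCREB PM replicate 2 the lowest of 12.

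Members varied by more than the typical gene. The median standard deviation within groups was 0.39 over the 37 genes and 0.30 over the 11600 genes tested. Their median range over the 12 arrays was 1.32 on the log2 scale against 1.18, and 28 of the 37, or 75.7%, spanned more than 1, against 62.7% of genes tested. Dnah12 had the widest range at 2.68, followed by Cfap43 at 2.59 and Cfap69 at 2.57.

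In wild-type lung, PM was accompanied by a lower level of 1 cilia gene, the inner arm dynein heavy chain Dnah12. Dnah12 read 5.87, 5.99 and 5.44 in the 3 PBS arrays and 4.14, 3.59 and 3.56 in the 3 PM arrays. The groups did not overlap, and 2 of the PM arrays lay below the limit of 4. Dnah12 fell by 2.00 ± 0.43 (SE) on the log2 scale (limma, adjusted p = 0.0399 over all genes tested). It was called lower in this comparison with 0.431% of genes tested, and 2.39% were called in either direction. The call was lost without any 1 of 6 arrays, 2 of them wild-type PBS (replicates 1 and 2), 2 wild-type PM (replicates 2 and 3), dnCREB PBS replicate 3 and dnCREB PM replicate 1, where its adjusted p was 0.0559 to 0.1307. The change itself stayed between -2.19 and -1.89 with each of the 12 arrays left out in turn. Within this comparison, PM replicates 1 and 2 were rich in skeletal muscle and squamous genes and PM replicate 3, with the lowest Dnah12 level, was not. With the 5 arrays rich in those genes left out, 7 arrays were fitted and the change was -2.21 with adjusted p = 0.3691. As a covariate, Xist minus Eif2s3y gave -2.59 (adjusted p = 0.0273). The call was lost with the skeletal muscle (adjusted p = 0.1209), squamous (0.1623) or club cell list (0.0673) as a covariate.

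The other 36 genes did not pass the adjusted threshold in this comparison, though most lay lower under PM. A change below 0 was found for 29 of the 37, against 40.9% of genes tested. The median change of the members was -0.33, against 0.11 over all genes tested. It was -0.16 without wild-type PBS replicate 1 and -0.49 without wild-type PBS replicate 3, the extremes with 1 array left out. At an unadjusted p under 0.05, 10 members were lower and 0 higher, against 9.25% of genes tested lower and 17.1% higher. All 3 PM arrays lay below all 3 PBS arrays for 7 members (Cfap43, Cfap52, Cfap65, Cfap69, Cfap70, Dnah6 and Dnah12), against 9.09% of genes tested.

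**Figure D2:**
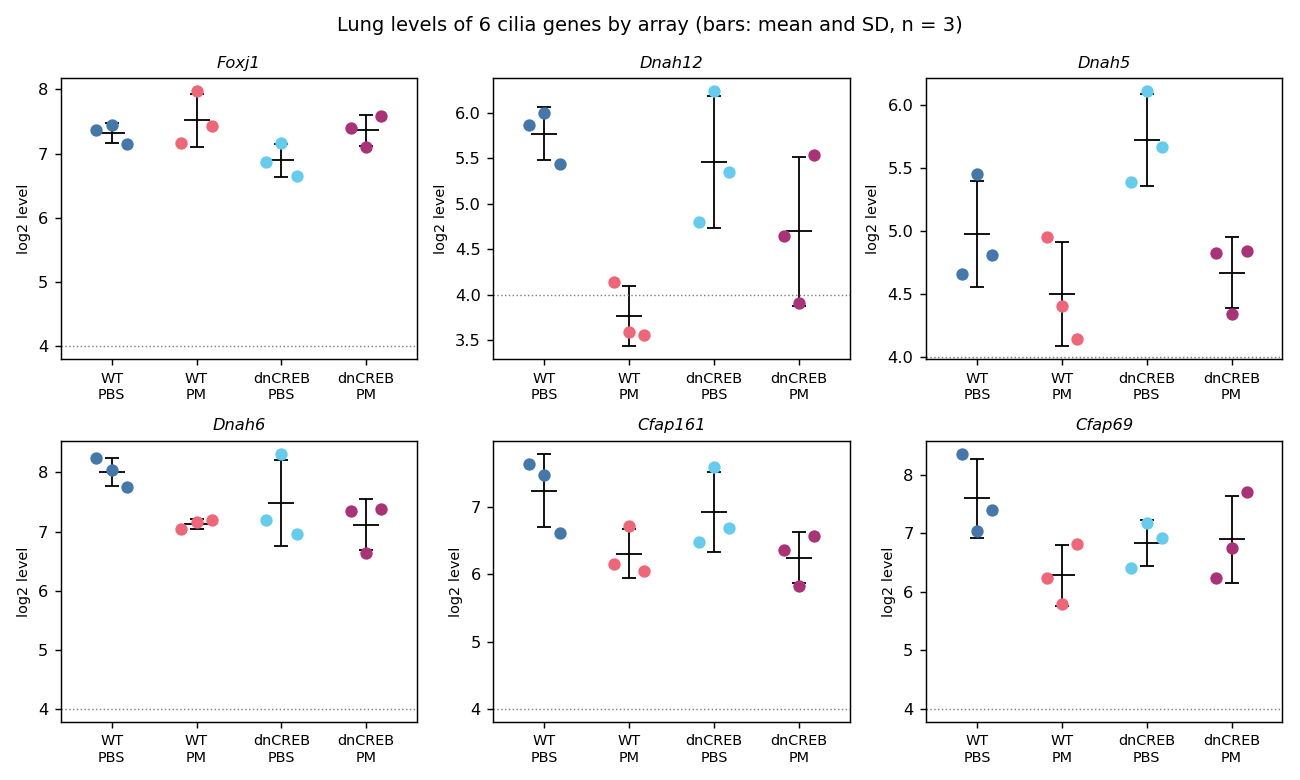
Log2 level of Foxj1, Dnah12, Dnah5, Dnah6, Cfap161 and Cfap69 in each of the 12 lung arrays by group, with the mean and SD of 3 arrays as black bars and the limit of 4 as a dotted line. Dnah12 lies at 5.44 to 5.99 in wild-type PBS and at 3.56 to 4.14 in wild-type PM without overlap, while Foxj1 overlaps between every pair of groups.

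By structure, the dyneins and their neighbours gave this picture in wild type. Of 8 Dnah genes, 7 had a change below 0, with a median of -0.35. Dnah6, an inner arm heavy chain and the brightest of the family, read 8.24, 8.04 and 7.76 under PBS and 7.04, 7.16 and 7.19 under PM. The groups did not overlap, but the change of -0.88 ± 0.33 did not pass (adjusted p = 0.1296). Dnah11, an outer arm heavy chain, changed by -0.43 ± 0.26 (adjusted p = 0.3033). Dnah8, an outer arm heavy chain best known from sperm, was the exception at 0.34 ± 0.27 (adjusted p = 0.4192). It read 4.84, 4.90 and 4.83 under PBS and 4.83, 4.91 and 5.85 under PM, so PM replicate 3 alone gave the rise.

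The 16 Cfap genes, which sit at many places in the axoneme, had 14 changes below 0 and a median of -0.47. Cfap69, a central pair protein, read 8.35, 7.04 and 7.39 under PBS and 6.24, 5.79 and 6.81 under PM. Its PM arrays all lay lower, and its change of -1.32 ± 0.43 did not pass (adjusted p = 0.1030). Cfap43 changed by -1.21 ± 0.40 (adjusted p = 0.1044). Cfap36 and Cfap20, the brightest of the family and both also present in heart, changed by -0.68 and -0.33. Cfap43, Cfap69 and 4 other members have a second measured probe set, and in this comparison the pair differed in sign only for Cfap97.

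Radial spoke genes lay lower under PM in wild type for 5 of 5, with a median of -0.21. Rsph1, a spoke head protein, changed by -0.50 ± 0.38, and Rsph3a, of the spoke stalk, by -0.21 ± 0.50. Of the tektins, filament proteins of the doublet wall, Tekt1 changed by -0.28 ± 0.26 and Tekt2 by 0.20 ± 0.31. Of the dynein assembly factors, 3 of 4 had a change above 0, and their median was 0.11, as over all genes tested. Dnaaf5 changed by 0.26 ± 0.27 and Dnaaf2 by 0.12 ± 0.18, while Dnaaf4 changed by -0.53 ± 0.23. None of the genes in this paragraph passed the adjusted threshold.

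Foxj1 did not pass the test in any comparison, and its changes with PM were above 0. It read 7.37, 7.44 and 7.16 in wild-type PBS and 7.16, 7.97 and 7.43 in wild-type PM. It read 6.86, 7.16 and 6.65 in dnCREB PBS and 7.40, 7.10 and 7.58 in dnCREB PM. The lowest group was dnCREB PBS, at 6.89 ± 0.26, then wild-type PBS at 7.32 ± 0.15, dnCREB PM at 7.36 ± 0.25 and wild-type PM at 7.52 ± 0.41 (SD, n = 3), and neighbours in that order overlapped. Its change with PM was 0.20 ± 0.23 in wild type (limma, adjusted p = 0.5899) and 0.47 ± 0.23 in dnCREB (adjusted p = 0.5471). Averaged over genotypes it was 0.33 ± 0.16 (adjusted p = 0.2046). With each of the 12 arrays left out in turn, the wild-type change ran from -0.03 to 0.38 and the dnCREB change from 0.35 to 0.60.

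**Figure D3:**
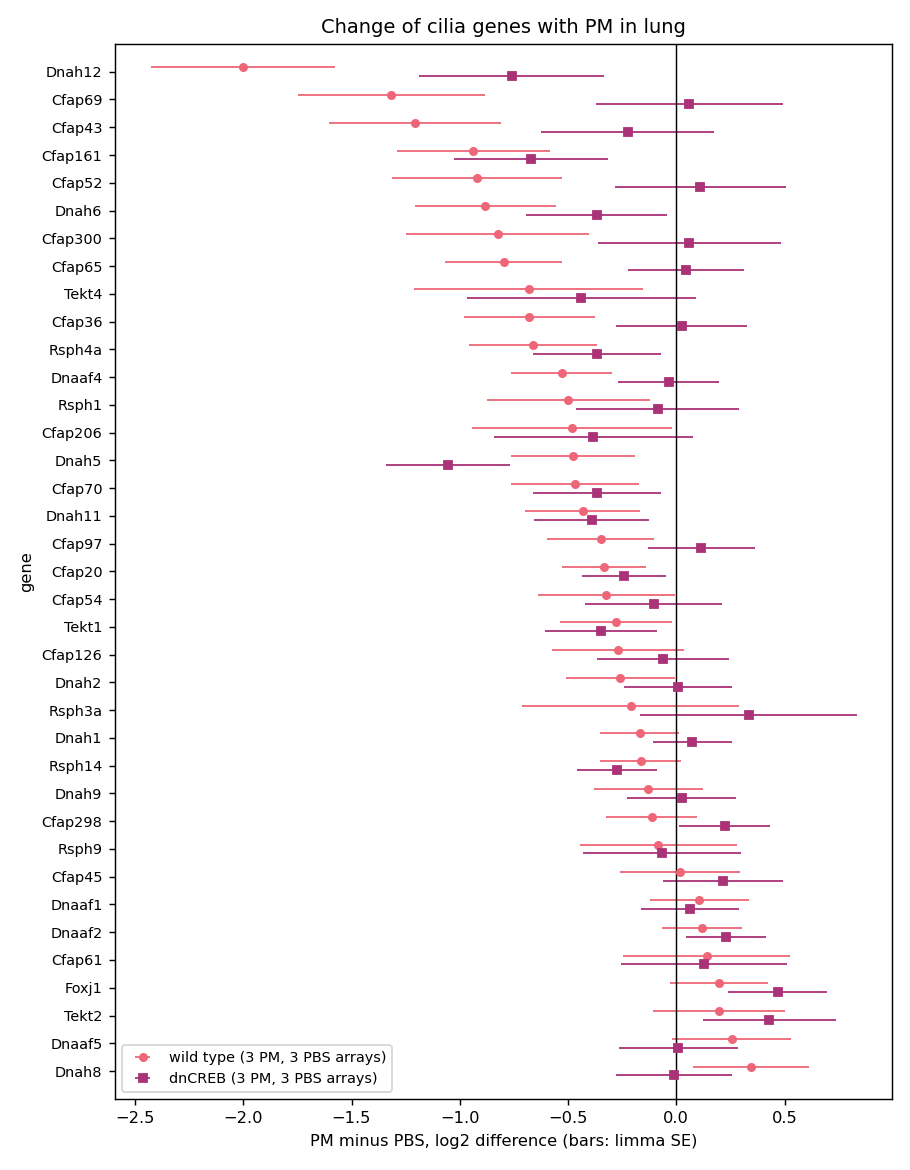
PM minus PBS log2 difference of each cilia gene in wild type (circles) and in dnCREB (squares), with limma standard errors as bars and genes ordered by the wild-type value. Wild-type points lie mostly left of 0, led by Dnah12, and dnCREB points lie around 0 apart from Dnah5 at -1.05.

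In dnCREB lung, 0 of the 37 genes passed the test for PM against PBS, where limma called 0.00862% of genes tested. At an unadjusted p under 0.05, 1 member was lower and 0 were higher, against 9.72% of genes tested in either direction. Their median change was -0.01, against 0.07 over all genes, and 19 of 37 were below 0, against 38.9% of genes tested. That median ran from -0.17 without PM replicate 3 to 0.12 without PM replicate 2. The smallest p belonged to Dnah5, an outer arm heavy chain whose loss causes primary ciliary dyskinesia. Dnah5 read 5.39, 6.11 and 5.67 under PBS and 4.82, 4.34 and 4.84 under PM, with no overlap. Its change was -1.05 ± 0.29 (adjusted p = 0.3100). Next came Foxj1, above, and Cfap161, a protein inside the doublet microtubules, at -0.67 ± 0.35 (adjusted p = 0.5831). The PM arrays did not overlap the PBS arrays and lay lower for 3 members (Cfap20, Dnah5 and Tekt1), against 8.25% of genes tested, and higher for 1 (Cfap298), against 20.8%. The median became -0.47 in the fit without the 5 arrays rich in skeletal muscle genes, which left 1 PBS array and 2 PM arrays in dnCREB.

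Averaged over genotypes, Dnah12 and Dnah5 were lower under PM. Dnah12 fell by 1.38 ± 0.30 (adjusted p = 0.0263) and Dnah5 fell by 0.76 ± 0.20 (adjusted p = 0.0473). They were 2 of 37 members called, 0 of them higher, against 1.35% of genes called lower and 6.76% called in either direction. Dnah5 in wild type read 4.66, 5.45 and 4.81 under PBS and 4.95, 4.40 and 4.14 under PM, with overlap, so the dnCREB arrays gave the larger part of its average. The Dnah5 call was lost in 10 of 12 fits with 1 array left out, at an adjusted p of up to 0.1141, and that of Dnah12 in 6 of 12, at up to 0.0671. Cfap161 followed at -0.80 ± 0.25 (adjusted p = 0.0727). The median change was -0.28 against 0.08 over all genes, with 27 of 37 below 0, against 39.7% of genes tested. Without wild-type PBS replicate 1 it was -0.15 and without dnCREB PM replicate 2 it was -0.18.

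Genotype gave no member that passed. Under PBS, dnCREB against wild type had 0 of 37 called where limma called 0.0259% of genes tested. At an unadjusted p under 0.05, 1 member (Dnah5) differed, against 5.42% of genes. Dnah5 was 0.75 ± 0.29 higher, Cfap52 0.86 lower in measured mean (5.93 against 6.79) and Foxj1 lower (6.89 against 7.32), each with adjusted p = 0.8747. The median change was -0.22 against -0.03, and 31 of 37 were below 0, against 54.5% of genes tested. That median was -0.03 without wild-type PBS replicate 1, -0.43 without wild-type PBS replicate 3, and 0.11 without the 5 arrays rich in skeletal muscle genes. The last of these fits kept only replicate 2 of the dnCREB PBS group. No member had groups without overlap, against 7.99% of genes lower and 5.85% higher.

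Under PM, dnCREB against wild type also had 0 of 37 called, where limma called 0% of genes tested and 3.97% reached an unadjusted p under 0.05, 0 of them members. Dnah12 was higher in dnCREB in measured mean (4.70 against 3.76, a difference of 0.94 ± 0.43), as were Cfap69 (0.61 ± 0.43) and Cfap65 (0.55 ± 0.27), each with adjusted p = 0.9010. Cfap65 read 7.12, 7.08 and 7.98 in dnCREB and 6.88, 6.74 and 6.92 in wild type, the only member without overlap, against 2.91% of genes higher in that way. The median over members was 0.07.

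The difference between the genotypes in their change with PM was tested as an interaction. It was called for 0 of 37 members and for 0.00862% of genes tested. At an unadjusted p under 0.05 there were 2 members, Cfap69 and Cfap65, against 5.22% of genes. The interaction was 1.38 ± 0.61 for Cfap69, 0.84 ± 0.38 for Cfap65 and 1.24 ± 0.60 for Dnah12 (each adjusted p = 0.8314). It was above 0 for 30 of 37, against 47.0% of genes tested, with a median of 0.24. That median was 0.11 without dnCREB PM replicate 3, 0.47 without dnCREB PM replicate 2, and -0.10 without the 5 arrays rich in skeletal muscle genes. The last of these fits kept only dnCREB PBS replicate 2 and wild-type PM replicate 3 of their groups. For Dnah12, the difference between its wild-type and dnCREB changes thus did not pass. The wild-type and dnCREB comparisons share no arrays, whereas the genotype comparison under PBS shares its wild-type PBS arrays with the PM comparison in wild type.

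From array to array within groups, the members varied together. Each array's deviation from its group mean was used, so that PM and genotype did not enter. The median Pearson correlation over pairs of members was 0.47 over the 12 arrays (Spearman 0.48), against 0.02 over pairs of all genes tested. With the values as they stand it was 0.43 (Spearman 0.44) against 0.03. All pairs share the same 12 arrays and their normalization, so these are descriptions. Of the 37 genes, 27 correlated above 0.5 with the mean of the other 36, a property of 9.24% of the genes that are no members with the mean of all 37. The median was 0.71. It was 0.73 for the 29 genes restricted to lung and 0.66 for the 8 also found in heart. Among the 8, Cfap126 and Rsph1 had heart medians of 4.31 and 4.34, just over the limit, and without them, a choice made after their values were seen, the median of the other 6 was 0.41. A first principal component held 48.9% of the members' deviations, against 34.8% over all genes tested.

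**Figure D4:**
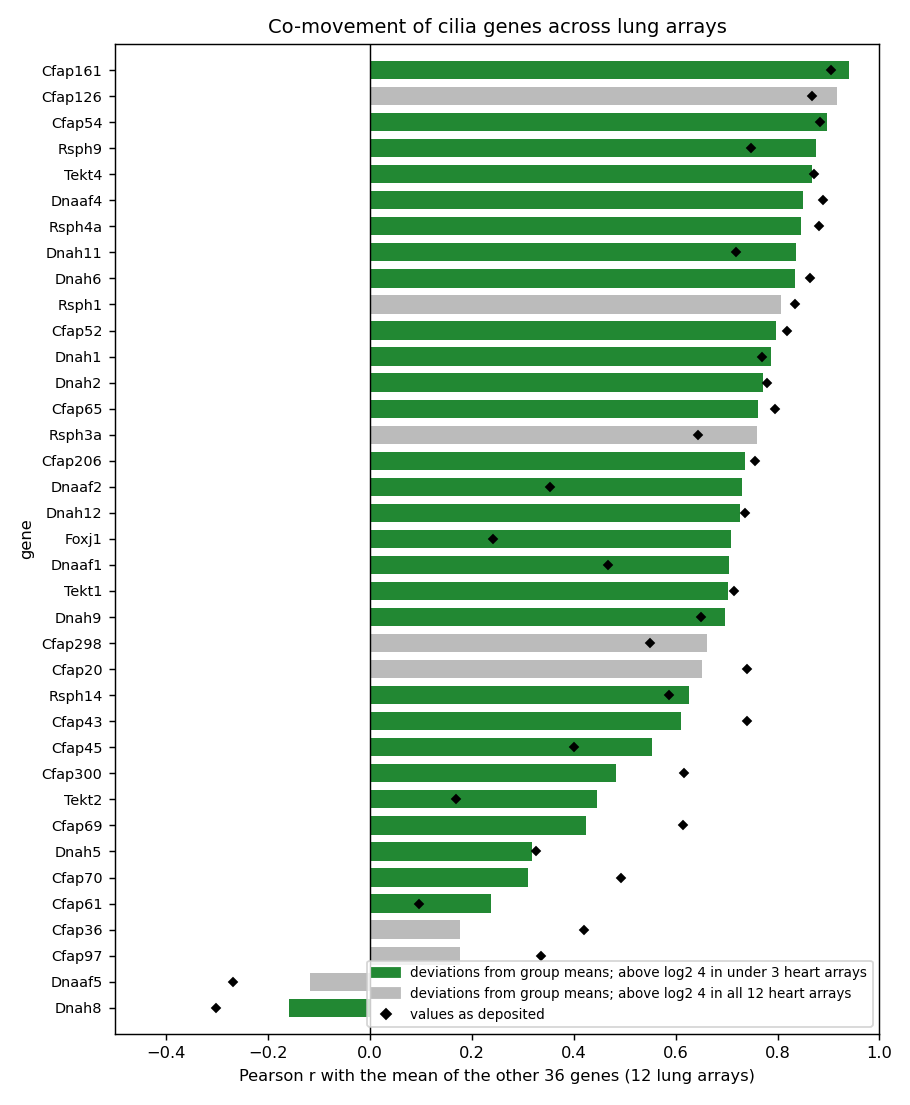
Pearson correlation of each gene with the mean of the other 36 over 12 lung arrays, as bars for deviations from group means and as diamonds for values as deposited; grey bars are the 8 genes also above log2 4 in heart. Cfap161 heads the order at 0.94, Dnaaf5 and Dnah8 end it below 0, and the diamond of Foxj1 lies far left of its bar.

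Cfap161 was the member closest to the rest, at 0.94, followed by Cfap126 at 0.92, which positions cilia at the cell surface, and Cfap54 of the central apparatus at 0.90. The spoke head protein Rsph9 reached 0.88 and Tekt4 0.87. Cfap161 read 7.63, 7.47 and 6.62 in wild-type PBS, 6.14, 6.72 and 6.04 in wild-type PM, 6.47, 7.59 and 6.69 in dnCREB PBS and 6.36, 5.82 and 6.56 in dnCREB PM. It was highest in the same 3 arrays as the mean of the members (wild-type PBS replicates 1 and 2 and dnCREB PBS replicate 2). The 2 genes below 0 were Dnaaf5 at -0.12 and Dnah8 at -0.16. Cfap36 and Cfap97, both also present in heart, were at 0.18. Dnah12 correlated with the others at 0.73 and Dnah5 at 0.32.

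Foxj1 followed the others within groups but less so across them. Its correlation with the mean of the other 36 was 0.71 for deviations from group means, the 19th of 37 in order, and 0.24 for values. Dnaaf1, an assembly factor, was the member most like it, at 0.91 for deviations. Foxj1 had its lowest group mean in dnCREB PBS, whereas the mean of the 37 genes was lowest in wild-type PM. The 2 arrays whose member mean lay farthest from the median were wild-type PBS replicate 1 and dnCREB PBS replicate 2. Without them the median pair correlation was 0.44 for deviations and 0.31 for values. The values of Foxj1 correlated with the mean of all 37 genes, itself included, at 0.27 (Spearman 0.45), and at 0.41 without those 2 arrays.

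The 250 bases before the start of 4 of these genes are shown: Cfap161 as the gene closest to the rest, Cfap298 as the only one with a full X-box, and Dnah12 and Dnah5 as the genes called. The X-box is the site of the RFX factors, which act with Foxj1 in ciliogenesis. Capitals mark every GTTGCC or its reverse GGCAAC, 1 arm of the X-box, and the full X-box, which contains such arms. Coordinates are in build GRCm38.p6, sequences are from RefSeq, and each runs from 250 bases before the start, on the gene's strand, to the base before it. Cfap161 lies on the minus strand at chr7:83794840-83795089, Cfap298 on the minus strand at chr16:90934850-90935099, Dnah12 on the plus strand at chr14:26691304-26691553 and Dnah5 on the plus strand at chr15:28203516-28203765.
Cfap161: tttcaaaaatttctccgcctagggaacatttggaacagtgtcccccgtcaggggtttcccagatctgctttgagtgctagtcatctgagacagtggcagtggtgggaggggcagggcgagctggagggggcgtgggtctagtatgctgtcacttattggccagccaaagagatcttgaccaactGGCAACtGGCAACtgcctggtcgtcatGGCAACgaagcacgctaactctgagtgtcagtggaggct
Cfap298: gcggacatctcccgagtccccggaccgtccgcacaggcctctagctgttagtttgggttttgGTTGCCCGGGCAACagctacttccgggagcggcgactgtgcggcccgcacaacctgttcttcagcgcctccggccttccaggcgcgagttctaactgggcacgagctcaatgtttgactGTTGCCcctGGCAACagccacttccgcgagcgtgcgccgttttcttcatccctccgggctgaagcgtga
Dnah12: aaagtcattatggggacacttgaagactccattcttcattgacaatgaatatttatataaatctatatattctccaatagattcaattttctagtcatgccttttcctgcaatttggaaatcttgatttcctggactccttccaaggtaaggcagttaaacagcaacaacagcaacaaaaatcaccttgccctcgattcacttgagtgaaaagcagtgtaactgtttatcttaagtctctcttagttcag
Dnah5: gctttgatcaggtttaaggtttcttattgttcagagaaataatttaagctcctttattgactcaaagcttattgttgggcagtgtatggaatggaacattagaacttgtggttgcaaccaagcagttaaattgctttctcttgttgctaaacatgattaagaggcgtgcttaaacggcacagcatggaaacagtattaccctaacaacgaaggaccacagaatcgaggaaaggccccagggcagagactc
Cfap161 holds 3 such arms, beginning 66, 59 and 39 bases before its start, and Dnah12 and Dnah5 hold none in these windows.

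Over the window from 250 bases before to 50 after the start, 30 of the 37 members matched the promoter table by symbol, and 7, Foxj1 among them, did not. Both strands were searched, and a gene with several starts counted once. The arm GTTGCC was found in 10 of 30 members (Cfap161, Cfap20, Cfap298, Cfap300, Dnaaf2, Dnaaf4, Dnaaf5, Tekt1, Tekt2 and Tekt4), or 33.3%, against 14.1% of all 27025 genes of the table and 15.1% of the 9398 of them tested in lung. The full X-box, GTTNCCNNGGNAAC, was found in Cfap298, 3.33% of members, against 0.529% of all genes and 0.628% of genes tested in lung. A forkhead motif, TGTTTAC, was found in Cfap20 and Cfap43, 6.67% against 4.05% of all genes and 3.16% of genes tested in lung. The cAMP response element TGACGTCA, which CREB binds, was found in Dnah6, 3.33% against 2.03% of all genes and 3.44% of genes tested in lung. The shorter TGACGT, which the full element contains, was found in Dnah6 and Tekt1, 6.67% against 8.37% and 13.1%. The arm was present in genes at both ends of the co-movement order, from Cfap161 at 0.94 to Dnaaf5 at -0.12.

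Other genes of the pathway varied with the members. Their lists were made without the members' symbols, apart from Foxj1 among the ciliogenesis regulators. The split is by symbol alone, so the lists can hold genes of the members' families under other names. A list of 41 measured genes of other motile cilia proteins (of 62 listed) had a mean that correlated with the members' mean at 0.98 for values and 0.98 for deviations. For 31 intraflagellar transport and basal body genes (of 32), which carry cargo into the cilium, the correlations were 0.87 and 0.81. For the ciliogenesis regulators they were 0.77 and 0.76, over a mean of 7 measured genes (of 15) and Foxj1, itself a member. Without the 2 farthest arrays the correlations of values were 0.96, 0.73 and 0.62, in the same order.

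**Figure D5:**
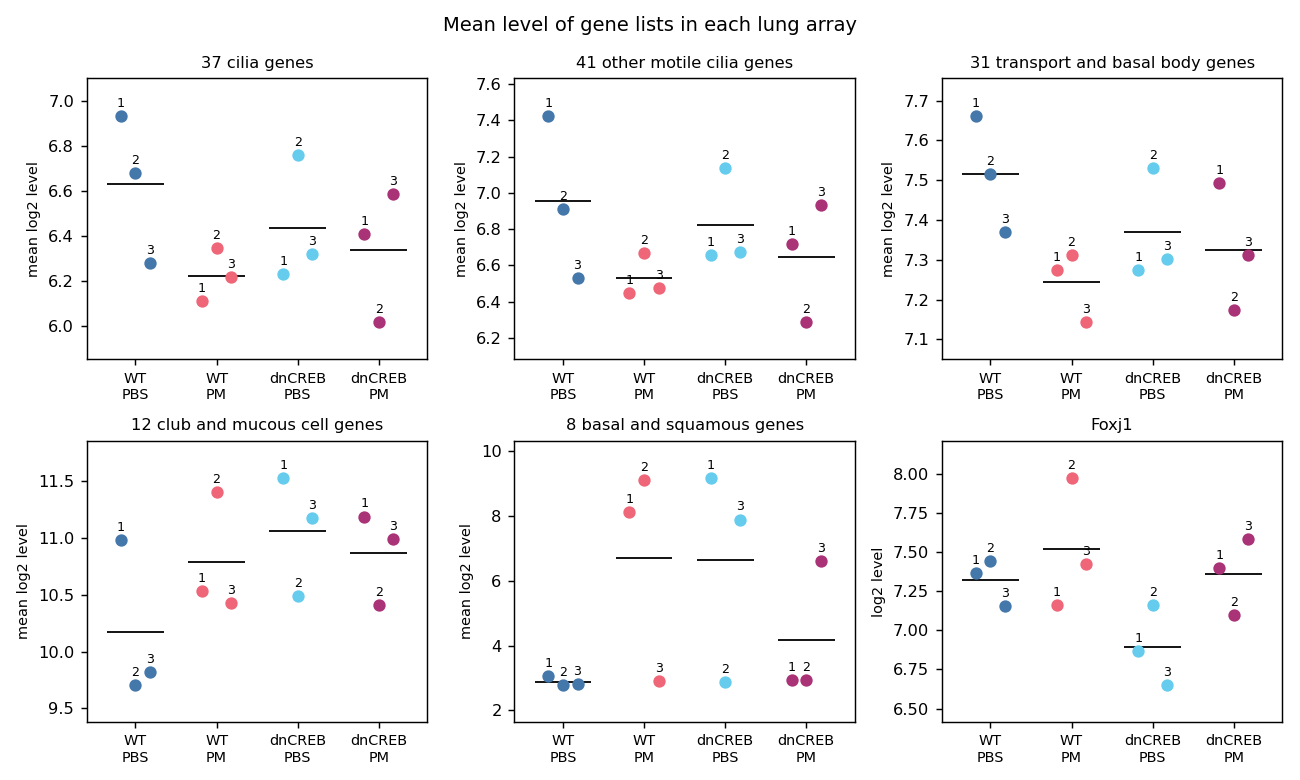
Mean log2 level per lung array of the 37 cilia genes, 3 other lists and the basal and squamous list, and the level of Foxj1, by group, with replicate numbers beside the points and group means as lines. The other motile cilia genes follow the members, whereas club and mucous cell genes do not, and the basal and squamous list splits arrays within 3 groups.

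Lists of other cell types correlated less closely with the members, or in the other direction. The mean of 12 club and mucous cell genes, which mark secretory cells beside the ciliated ones, correlated with the members at -0.03 for values and 0.30 for deviations. The basal and squamous list was at -0.33 and -0.13, the skeletal muscle list at -0.28 and -0.03, and leukocyte genes at -0.52 and -0.30. Type II alveolar genes were at -0.48 and -0.40, but at 0.11 for values without the 2 farthest arrays. The endothelial and smooth muscle list was at -0.61 and -0.47, but at -0.09 for values without the 2 farthest arrays. Of 12 listed airway cartilage genes only 3 were measured in lung (Chad, Comp and Sox9), and Col2a1 and Acan were not. The mean of those 3 was at -0.79 and -0.68, and at -0.80 for values without the 2 farthest arrays. The mean of the 4 measured sex-chromosome genes was at 0.47 and 0.63, and at 0.29 for values without those arrays. The part of these lists in the cilia levels was not tested.

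The pathway lists changed with PM in wild type as follows. The other motile cilia list had 0 of 41 genes called, 36 below 0 and a median of -0.33, against 0.431% called lower, 40.9% below 0 and a median of 0.11 over all genes tested. Its smallest p-values belonged to Lrrc23 at -0.90 ± 0.26 (adjusted p = 0.0783), Lrrc34 at -1.31 ± 0.39, the dynein docking ruler protein Ccdc39 at -1.48 ± 0.46 and Iqcg at -0.82 ± 0.33, with adjusted p-values of up to 0.1518. The intraflagellar transport and basal body list had 1 of 31 called, lower, with 21 below 0 and a median of -0.35. That gene was Hspb11, a transport complex subunit, which fell by 1.33 (adjusted p = 0.0474). All 7 ciliogenesis regulators were below 0, 0 were called, and the median was -0.56. The smallest p there belonged to E2f5, a transcription factor of multiciliogenesis, at -0.98 ± 0.32 (adjusted p = 0.1006). In dnCREB the medians were -0.16, -0.05 and -0.20, in the order of these lists, against 0.07 over all genes tested, with 0 genes called in each list. Club and mucous cell genes had a median of 0.28 in wild type and -0.25 in dnCREB, with 0 called in either.

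The genes outside the members that followed their mean most closely were sought over the deviations in the 12 arrays. Outside is meant by symbol alone, so a gene of the members' families held under another name counts here. In order they were Wdr78 (0.98), Ttc29, Ak7, Cdhr3, Ubxn10, Ccdc113, Mak, Mdh1b, Spag6l, Nme5, Drc3, Dynlrb2, Lrrc6, Fam183b and Spaca9 (0.92), leaving out predicted genes. Of these 15, 9 belonged to the cilia lists, against 0.683% of the 11563 genes tested that are no members. Of the first 50, 17 did, and of the first 100, 18. Wdr78 changed by -0.80 with PM in wild type, with its PM arrays all below its PBS arrays, and did not pass (adjusted p = 0.1123).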

How the data were processed

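Total RNA of 24 samples was hybridised to Affymetrix mouse arrays, 12 of lung and 12 of left ventricle. Per the submitters' processing notes, the authors deposited log2 values made with GCRMA, which corrects background by probe sequence, normalizes between arrays and summarises each probe set; the version is not given in the sources used here. No further normalization was applied. Of 45037 probe sets, 34945 matched 1 gene symbol, 932 several and 9160 none, and the last 2 kinds were left out. Symbols came from GEO's platform annotation.

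Lung genes above a log2 value of 4 in at least 3 of 12 arrays (11600) entered a model of the 4 group means with moderated variances (limma 3.58.1, R 4.3.3). P-values were adjusted by Benjamini-Hochberg over all of them, at a threshold of 0.05. The fit was tested on simulated data. Changes are log2 differences with limma standard errors (SE); standard deviations (SD) are over n = 3 arrays. Arrays give no counts, and their number limits the precision. Correlations are Pearson's unless named otherwise and are given as descriptions without a test. Tables and plots were made in Python 3.11.15 with pandas 2.3.3 and matplotlib 3.10.9.

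Named genes were Foxj1, the 2 members of each family with the highest lung mean, members called or with the 3 smallest p in a comparison, the smallest p of the pathway lists and the 15 genes nearest to the members' mean; the rest were named after their values were seen. Members and lists were chosen with earlier results of these data known. Alternatives covered normalization, filters, probe sets, variance models, array weights, the replicate number, marker covariates and each array left out. A list of testis genes had 0 genes tested and was not used.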

Additional observations from a re-analysis of the deposited data

How the results depend on the processing

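The calls depended on the setting. Dnah12 lost its call in 13 of 27 alternatives in wild type and in 9 of 26 averaged over genotypes, and Dnah5 lost its call in 19 of 26 averaged over genotypes. The count of members called fell from 1 to 0 in 14 of 28 alternatives in wild type. Averaged over genotypes, where it was 2, it moved by over 1.5 times or to 0 in 20 of 27. The co-movement of deviations from group means stayed between 0.40 and 0.53 over 15 alternatives. The median change was held to a spread between arrays of 0.27, which is close to the size of the medians themselves, so the single-array values in the report bear more on it. In wild type, 0 members were called for PM with no filter, a filter at 6 (which leaves Dnah12 out), the replicate block, the club, skeletal muscle, squamous or other motile cilia covariate, or without the arrays rich in skeletal muscle genes. Averaged over genotypes, 1 was called with centred arrays, the replicate block, or the club, skeletal muscle, sex-chromosome or squamous covariate. There, 0 were called with no filter, a filter at 6, the other motile cilia covariate or without the muscle-rich arrays, and 6 with array weights (Cfap161, Cfap43, Dnah11, Dnah12, Dnah5 and Tekt1). Array weights also gave 2 in dnCREB (Dnah5 and Tekt1). Leaving out 1 array gave 0 to 1 members in wild type and 0 to 2 averaged over genotypes.

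The fit without the muscle-rich arrays kept only dnCREB PBS replicate 2 and wild-type PM replicate 3 of their groups. Its median change was -0.47 with PM in dnCREB, 0.11 for genotype under PBS and -0.10 for the interaction. With the other motile cilia covariate it was 0.04 with PM in wild type and 0.0447 averaged over genotypes. That list's mean correlated with the members' mean at 0.98, so this adjustment takes out most of their shared change by construction. These 2 covariates and this exclusion (squamous, other motile cilia, muscle-rich arrays) were chosen after seeing the data. Why the calls moved was not tested, apart from the smaller number of genes or arrays some alternatives leave.

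The replicate numbers did not pair the arrays: over 18 pairs of arrays with the same number, correlations of deviations ran from -0.33 to 0.33, 4 exceeded 0.1, and 0 of 12 arrays correlated best with its own number. With the replicate block, Dnah12 in wild type had an adjusted p of 0.0647 and Dnah5 averaged over genotypes 0.0698. A fit of only the groups compared was not run for the average and the interaction, which use all 4 groups. With 3 arrays a group, precision limits what could pass, and Dnah12 lay at or under the limit of 4 in some PM arrays.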
